A study of Mus musculus with 4 samples.

Results

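The genes described are 48 Polycomb, trithorax and BAF chromatin regulators, a list of named genes that was matched by symbol to the Ensembl gene identifiers of the count files. All 48 were found among the 39179 genes of each file, and all 48 had enough counts to be tested. They comprise 7 genes of Polycomb repressive complex PRC2, 14 of PRC1, 8 of the H3K4 methyltransferase complexes, 4 histone demethylases, 10 BAF genes and 5 genes of the NuRD complex and the CHD remodeller family.

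RNA was sequenced from 4 chimeric mouse embryos staged at E7.75, 2 made with FLAG-Lhx1 embryonic stem cells (ESCs) and 2 made with FLAG-Lhx1-mt ESCs. LHX1 is a LIM homeodomain transcription factor required for formation of the head, and the FLAG tag is a short epitope. In both groups the ESCs were cultured in 2i medium and placed in 8-cell host embryos of an ARC x RLZRFP cross, and the recipient mothers drank doxycycline with sucrose for the last 24 hours. Development lagged by roughly a day, ESC contribution was checked before freezing, and host cells remain in each embryo. The mutant line is also written with a Δ in the labels. The sources used here do not give what it lacks, which promoter drives the transgene or how many ESC clones were used. The comparison asks what differs between embryos with the intact and the altered FLAG-tagged LHX1.

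Polycomb complexes keep developmental genes silent. PRC2 methylates lysine 27 of histone H3, and PRC1 ubiquitinates histone H2A and binds that methyl mark through its CBX subunits. Trithorax-type complexes oppose them by methylating lysine 4 of histone H3, and BAF complexes use the energy of ATP to move nucleosomes. At gastrulation these regulators are broadly expressed, and mouse embryos without Ezh2, Eed, Suz12 or Rnf2 fail at around this stage.

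The libraries held 21267116 to 30434442 counts, and 3 counts corresponded to 0.0959 to 0.153 CPM (counts scaled to library size by TMM factors). Lhx1 itself was at 129 and 114 CPM in the FLAG-Lhx1 embryos and at 126 and 98.5 CPM in the FLAG-Lhx1-mt embryos (log2 fold 0.11 ± 0.16, edgeR adjusted p = 0.733), and the counts do not separate transgene from endogenous transcripts, so they do not check the labels. The marker lists of other embryonic tissues differed between the groups. The summed level of 7 anterior neuroectoderm markers was 221 and 201 CPM in the FLAG-Lhx1 embryos against 73.9 and 111 CPM in the mutant embryos, with 5 of the 7 called higher. Most of the summed difference lay in Hesx1, at 135 and 121 against 13.2 and 23.2 CPM. Otx2, the next most abundant, overlapped at 63.7 and 56.1 against 57.7 and 83.2 CPM (log2 fold -0.23, not called). In the same order of groups, 6 pluripotent epiblast markers summed to 412 and 295 against 717 and 1080 CPM with 6 of 6 lower, 6 primitive streak markers to 179 and 154 against 501 and 570 CPM with 5 of 6 lower, and 7 visceral endoderm markers to 1275 and 1411 against 2560.0 and 2318 CPM with 4 of 7 lower. Markers of trophoblast (7.03 to 10.9 CPM summed), maternal decidua (5.14 to 6.53) and blood (2.96 to 4.41) were low in all 4 embryos. Enough counts for a test were found for 5 of 7, 4 of 5 and 2 of 7 of them, and none was called. Tpbpa, Hbb-bh1, Hba-x and Hbb-y were at 0 in at least 1 embryo. The part of these tissue differences in the results was not tested. In whole embryos, fewer cells of a type and less RNA per cell cannot be told apart.

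Among the listed genes, 4 differed between the groups. Ezh2, the main H3K27 methyltransferase of PRC2, Bmi1, a PRC1 core subunit, and Chd7, an ATP-dependent remodeller of the CHD family, were higher in the FLAG-Lhx1 embryos, and Hdac1, a deacetylase of NuRD, was lower. Here and throughout, a gene is called where the Benjamini-Hochberg adjusted p of edgeR's quasi-likelihood test, over all 15822 genes tested, was under 0.05, and each log2 fold is the FLAG-Lhx1 level over the FLAG-Lhx1-mt level, given with its standard error. The 4 calls are 8.33% of the 48 genes, against 6.17% of all genes tested, a share near the background. By direction, 3 members were higher against 2.62% of all genes, and 1 was lower against 3.55%. Over all genes that was 415 higher and 561 lower, a split that turned to 472 higher and 395 lower under upper-quartile scaling. At an unadjusted p under 0.05 there were 10 members (20.8%), against 21.3% of all genes, and the levels of the groups did not overlap for 23 members (47.9%), against 52.2% of all genes. Those 23 divided into 11 higher and 12 lower in FLAG-Lhx1.

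The folds of the 48 genes ranged from -0.88 to 0.70 on the log2 scale. Their median was 0.00 (-0.000286), beside 0.01 for all genes, with 24 genes above 0. The interquartile range of the members was -0.22 to 0.21, beside -0.30 to 0.33 for all genes. None of the 48 reached a log2 fold of 1 in size, which 10.2% of all genes did. The members were also higher expressed, with a median of 39.3 CPM beside 8.28 CPM for all genes. The 95% interval of the fold lay within 1 log2 unit of 0 for 39 members (81.2%), against 52.2% of all genes, and within 0.5 for 14. For those 39, a difference of 2-fold or more lies outside the interval.

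**Figure D1:**
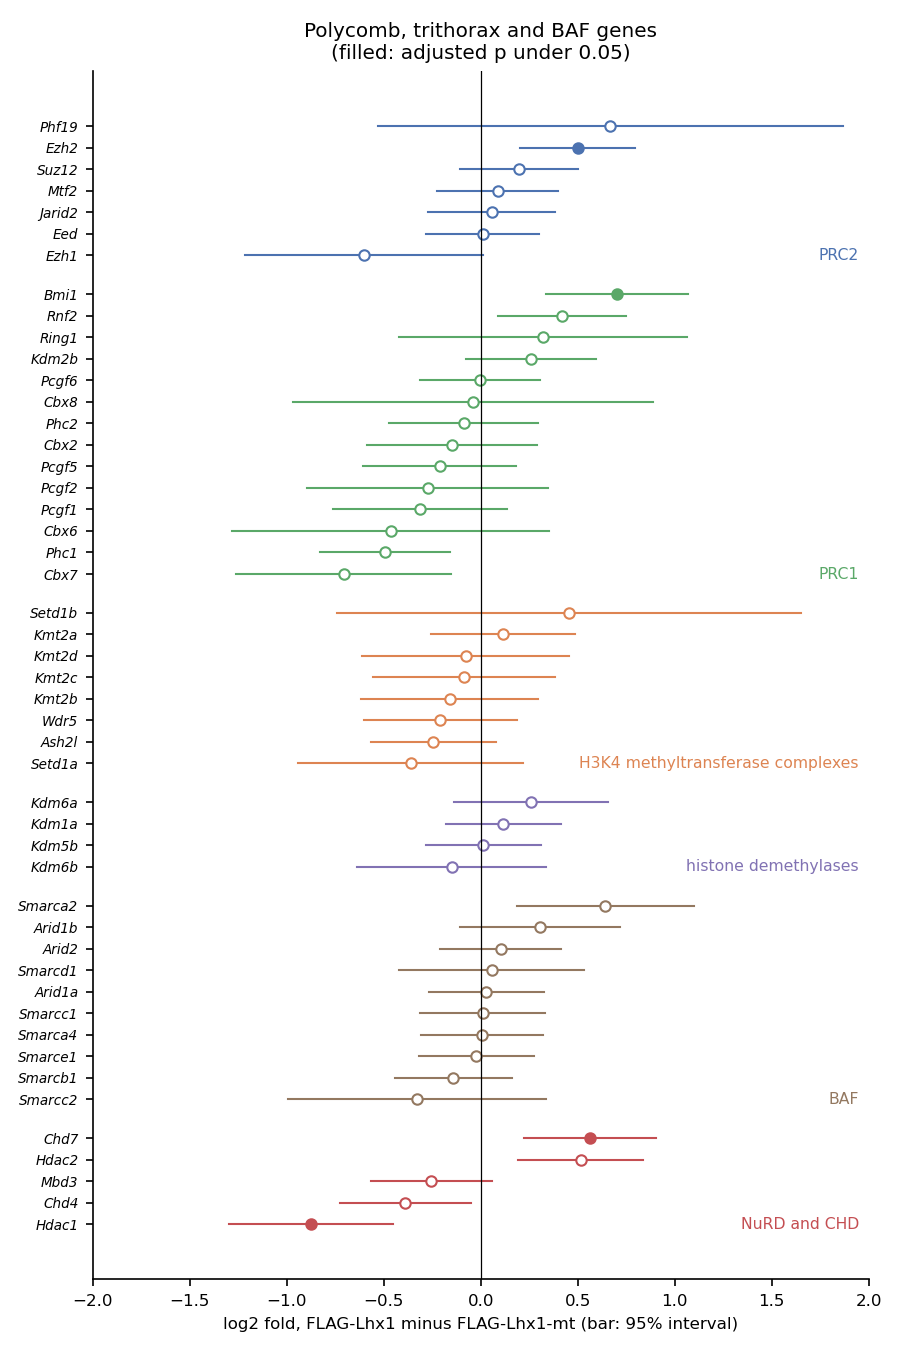
Log2 fold (FLAG-Lhx1 minus FLAG-Lhx1-mt) of the 48 genes by complex, with 95% intervals of the edgeR quasi-likelihood fit. The 4 called genes, Ezh2, Bmi1 and Chd7 to the right of 0 and Hdac1 to the left, are marked, and most other intervals span 0.

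The promoter windows of Ezh2 and Bmi1, the 2 called Polycomb genes with an entry in the RefSeq promoter table (GRCm38.p6), are shown so that the regulatory sequence can be read beside the values. Each runs from 250 bases before to 50 after the annotated start. The Ezh2 window is chr6:47594981-47595280, minus strand, with 31 CG dinucleotides, and the capitals mark TTTGGCGC, a motif bound by E2F factors, beginning at position 3 from the start. The Bmi1 window is chr2:18676768-18677067, plus strand, with 23 CG dinucleotides, and the capitals mark CACGTG, the E-box bound by MYC-type factors, at position -215 from the start.
Ezh2: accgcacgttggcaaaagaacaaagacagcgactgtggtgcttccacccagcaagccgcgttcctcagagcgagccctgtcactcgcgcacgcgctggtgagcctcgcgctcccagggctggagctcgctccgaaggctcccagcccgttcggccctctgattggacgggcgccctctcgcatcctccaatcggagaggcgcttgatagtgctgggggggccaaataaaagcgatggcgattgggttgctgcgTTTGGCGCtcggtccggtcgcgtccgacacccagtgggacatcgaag
Bmi1: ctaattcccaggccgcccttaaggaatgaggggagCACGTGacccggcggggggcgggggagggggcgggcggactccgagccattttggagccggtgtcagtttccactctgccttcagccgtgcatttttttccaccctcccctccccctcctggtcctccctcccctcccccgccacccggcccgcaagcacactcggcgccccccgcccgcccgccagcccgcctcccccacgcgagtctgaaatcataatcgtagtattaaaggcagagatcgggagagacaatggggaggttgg
Both strands of every window were searched for 4 motifs. Windows were found for 38 of the 48 genes (49 windows). They held a median of 29 CG dinucleotides (2 to 56), beside 19 for the tested genes and 7 for the whole table of 32851 windows. CACGTG was in 6 member windows (12.2%, those of Bmi1, Cbx6, Cbx8, Kdm6a, Pcgf2 and Phc2) and in 7.15% of all windows. TTTGGCGC was in 1 (Ezh2, 2.04%) and in 0.514% of all windows, and TTTCGCGC was in 0 and in 0.323%. TAATTA, the core bound by many homeodomain proteins including the LHX family, was in 1 (Phf19, 2.04%) and in 5.29% of all windows. The motif shares of all windows are over the whole table, whose windows hold fewer CG dinucleotides than those of the members. Windows of like composition were thus not compared, and no motif share was taken over the tested genes alone. A match is a description of the letters and not of binding.

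PRC2 held 1 call among 7 genes, a number too small to set apart from the 6.17% of all genes. Ezh2 (chr6:47530139-47595341, minus strand, ENSMUSG00000029687) was at 256 and 237 CPM in the FLAG-Lhx1 embryos and at 177 and 172 CPM in the FLAG-Lhx1-mt embryos. Both FLAG-Lhx1 embryos were above both others, with means of 246 ± 13.6 and 174 ± 3.32 CPM (SD, n = 2 each). The log2 fold was 0.50 ± 0.14 (95% interval 0.20 to 0.79, edgeR adjusted p = 0.0456). Its paralog Ezh1, the catalytic subunit more typical of non-dividing cells, was at 4.01 and 4.99 against 7.43 and 6.20 CPM and was not called (log2 fold -0.60 ± 0.29, edgeR adjusted p = 0.244). The other core subunits, on which the enzyme depends, were not called. Suz12, the scaffold subunit, had 107 and 97.2 against 90.4 and 87.6 CPM, without overlap (0.20 ± 0.14). Its 95% interval of -0.11 to 0.50 reaches the Ezh2 estimate. Eed, which binds the methyl mark, had 203 and 205 against 196 and 209 CPM. The 95% interval of the Eed log2 fold was -0.28 to 0.30. Jarid2 and Mtf2, accessory subunits that help recruit PRC2 to CpG-rich DNA, had log2 folds of 0.06 and 0.09. Phf19, a further accessory subunit, was at 0.703 to 1.47 CPM, where the few counts leave its log2 fold between -0.53 and 1.87.
The Ezh2 call was lost without either FLAG-Lhx1 embryo (log2 fold 0.41, edgeR adjusted p = 0.329 without replicate 1, and 0.57, adjusted p = 0.111 without replicate 2) and without FLAG-Lhx1-mt replicate 2 (0.47, adjusted p = 0.0829). It was also lost without the filter on low counts (0.44, adjusted p = 0.0754) and with length and GC offsets (0.44, adjusted p = 0.0684).

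PRC1 held 1 call among 14 genes (7.14%, near the 6.17% of all genes), and members on both sides of 0. Bmi1 (also called Pcgf4; chr2:18677018-18686629, plus strand, ENSMUSG00000026739) had 50.6 and 42.9 CPM in the FLAG-Lhx1 embryos and 31.5 and 26.0 CPM in the mutant embryos. The groups did not overlap, with means of 46.8 ± 5.48 and 28.8 ± 3.88 CPM (SD, n = 2 each) and a log2 fold of 0.70 ± 0.17 (0.33 to 1.07, edgeR adjusted p = 0.0262). The call was lost without FLAG-Lhx1 replicate 1 (0.55, adjusted p = 0.263) and, narrowly, without FLAG-Lhx1-mt replicate 2 (0.56, adjusted p = 0.0515). Rnf2 (RING1B), the main H2A ubiquitin ligase, was at 202 and 184 against 163 and 126 CPM, again without overlap but not called (0.42 ± 0.15, edgeR adjusted p = 0.126). The second ligase, Ring1, was at 3.66 and 5.50 against 2.79 and 4.47 CPM.

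Phc1 and Cbx7, subunits of canonical PRC1, lay on the opposite side. Phc1, a polyhomeotic subunit, was at 96.4 and 86.0 CPM in the FLAG-Lhx1 embryos and at 112 and 145 CPM in the mutant ones (-0.49 ± 0.16, edgeR adjusted p = 0.0793). Cbx7, the CBX subunit typical of ESCs, was at 12.9 and 7.78 against 14.4 and 19.4 CPM (-0.71 ± 0.26, edgeR adjusted p = 0.126). Neither pair of groups overlapped and neither gene was called. Without FLAG-Lhx1-mt replicate 1, the fit called Phc1 and Cbx7 lower and Rnf2 higher (log2 fold 0.61, adjusted p = 0.0125 for Rnf2), and without FLAG-Lhx1 replicate 1 it called Cbx7. The other CBX subunits were not called. Cbx2 had 14.0 to 17.2 CPM and log2 fold -0.15, and Cbx6 and Cbx8 were at 1.60 to 3.31 CPM. The PCGF subunits, which define the PRC1 variants, apart from Bmi1 had log2 folds of -0.31 (Pcgf1), -0.27 (Pcgf2), -0.21 (Pcgf5) and -0.01 (Pcgf6), and none was called. Pcgf6, of the germline-gene-silencing variant, was the most abundant of them by CPM, at 75.3 to 85.8. Phc2 had a log2 fold of -0.09. Kdm2b, which brings variant PRC1 to CpG islands, was at 56.8 and 55.0 against 42.4 and 50.8 CPM (0.26 ± 0.16, not called). In all, 8 of the 14 PRC1 genes (57.1%) did not overlap, near the 52.2% of all genes, 4 had a positive log2 fold, and the median was -0.12.

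The 8 genes of the H3K4 methyltransferase complexes held no call, and none had an unadjusted p under 0.05 (21.3% of all genes did). The catalytic subunits Kmt2a (30.2 and 38.0 against 30.8 and 32.1 CPM), Kmt2b (16.2 to 22.7 CPM), Kmt2c (13.1 to 17.4) and Kmt2d (7.38 to 9.07) overlapped between the groups. Their log2 folds were 0.11, -0.16, -0.09 and -0.08. Wdr5 and Ash2l, core subunits shared by these complexes, were more abundant by CPM. Wdr5 had 75.5 and 52.5 against 64.0 and 84.0 CPM (-0.21), and Ash2l had 116 and 94.3 against 132 and 118 CPM (-0.25 ± 0.15). Setd1a was at 4.94 to 7.57 CPM. In the annotation used here, exons of other genes cover 52.3% of its exon bases. Gm49388, which matches 3527 bases of Setd1a at 100% identity, is not among the genes of the count files. How far the overlap affected the Setd1a value is uncertain. Setd1b was low, with 1.91 and 1.58 against 0.515 and 1.98 CPM, and its fold turned with 1 embryo, running from -0.18 to 1.74 as each was left out. The 95% interval lay within 1 log2 unit of 0 for 7 of the 8.

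The 4 histone demethylases held no call, and no unadjusted p under 0.05. Kdm6a and Kdm6b, which remove the PRC2 mark, were at 47.1 and 32.7 against 34.4 and 32.3 CPM and at 10.8 and 11.5 against 11.0 and 13.7 CPM. FLAG-Lhx1 replicate 1 alone was high in Kdm6a. Kdm6a is X-linked, and that embryo also had the highest Xist, at 29.4 CPM beside 1.93 CPM in FLAG-Lhx1 replicate 2 and 2.66 and 14.5 CPM in the mutant embryos. Uty, the Y-linked paralog of Kdm6a, was at 2.98 and 4.63 against 4.47 and 1.69 CPM. The part of these differences in the Kdm6a values was not tested. Kdm5b, a demethylase of H3K4me3, was at 139 to 147 CPM in all 4 embryos (log2 fold 0.01, 95% interval -0.28 to 0.31). Kdm1a (LSD1), which removes mono- and dimethyl groups from H3K4, was at 157 and 149 against 136 and 146 CPM (0.12).

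The BAF genes held no call among 10, and 6 had a 95% interval within 0.5 log2 units of 0. Smarca4 (BRG1), the ATPase of ESC and embryonic BAF, was at 109 and 103 against 95.6 and 115 CPM (log2 fold 0.01, 95% interval -0.31 to 0.32). Its paralog Smarca2 (BRM) was the one BAF gene with an unadjusted p under 0.05. It had 27.0 and 36.7 CPM in the FLAG-Lhx1 embryos and 24.1 and 16.8 CPM in the mutant embryos, without overlap (0.64 ± 0.21, edgeR adjusted p = 0.0900). It was called without FLAG-Lhx1 replicate 1 (0.82, adjusted p = 0.0482) and without FLAG-Lhx1-mt replicate 1 (0.91, adjusted p = 0.000916). The core subunits Smarcb1 (87.7 to 100.5 CPM), Smarcc1 (78.6 to 91.9), Smarcd1 (14.0 to 20.1) and Smarce1 (122 to 131) had log2 folds of -0.14, 0.01, 0.06 and -0.02. Smarcc2, the neural-type partner of Smarcc1, was at 4.24 to 6.81 CPM (-0.33). Of the ARID subunits that define BAF variants, Arid1a was at 180.4 to 201 CPM (0.03), Arid1b at 16.3 to 21.0 CPM (0.31), and Arid2, of the PBAF variant, at 115 to 139 CPM (0.10).

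All 5 genes of the NuRD and CHD group separated the embryos by group, 2 higher and 3 lower in FLAG-Lhx1, where 52.2% of all genes did not overlap. This did not extend to 14 other NuRD and CHD genes outside the list, of which 5 (35.7%) did not overlap and none was called. Hdac1 (chr4:129516104-129542713, minus strand, ENSMUSG00000028800) was at 51.0 and 45.7 CPM in the FLAG-Lhx1 embryos and at 111 and 67.0 CPM in the mutant embryos. The mutant embryos were the higher ones and were far apart from each other, with means of 48.4 ± 3.71 and 89.0 ± 31.0 CPM (SD, n = 2 each). The log2 fold was -0.88 ± 0.20 (-1.30 to -0.46, edgeR adjusted p = 0.0171), and without FLAG-Lhx1-mt replicate 1 it was -0.48 and not called (adjusted p = 0.0750). Its paralog Hdac2 lay the other way, at 303 and 257 against 179 and 213 CPM (0.51 ± 0.15). Hdac2 missed the threshold, with an edgeR adjusted p of 0.0561, and was past it in 7 of 14 alternative settings.

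Hdac1 has a near-identical processed pseudogene, Gm10093 on chromosome 17, which shares 1444 bases with it at 99.4% identity and was at 26.1 and 19.1 CPM in the FLAG-Lhx1 embryos and 28.7 and 25.6 CPM in the mutant embryos. Reads of Hdac1 could have been counted there, so its value is uncertain in level. Summed over both genes the levels were 77.1 and 64.9 against 140 and 92.7 CPM, a log2 ratio of the means of -0.71. Such matches, at 95% identity or more over at least 200 bases, existed in the count files for 7 of the 48 genes. The Bmi1 copy, Gm5946, had at most 0.118% of the summed level, and those of Smarce1 at most 1.42%. Kdm2b shares 627 of its 5180 bases with Rnf34, so its value is also uncertain. Rnf34 is not a copy but a separate protein-coding gene on the same chromosome. It made up as much as 66.8% of the sum of both, so the log2 ratio of the summed means (0.03) does not describe Kdm2b alone.

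Chd7 (chr4:8690406-8867659, plus strand, ENSMUSG00000041235), needed in neural crest and sensory organ development and mutated in human CHARGE syndrome, was at 51.6 and 46.3 CPM in the FLAG-Lhx1 embryos and at 33.3 and 33.1 CPM in the mutant embryos. The groups lay well apart, with means of 49.0 ± 3.71 and 33.2 ± 0.129 CPM (SD, n = 2 each) and a log2 fold of 0.56 ± 0.16 (0.22 to 0.90, edgeR adjusted p = 0.0487). It was the call nearest the threshold and was lost without either FLAG-Lhx1 embryo (0.45, adjusted p = 0.381, and 0.65, adjusted p = 0.126) and without FLAG-Lhx1-mt replicate 2 (0.54, adjusted p = 0.0565). It was also lost without the filter on low counts (0.50, adjusted p = 0.104), with the replicate block (0.56, adjusted p = 0.0568), with length offsets (0.31, adjusted p = 0.300) and with length and GC offsets (0.36, adjusted p = 0.200). Chd4, the ATPase of NuRD, had 36.7 and 33.8 against 44.9 and 47.5 CPM (-0.39 ± 0.16, edgeR adjusted p = 0.167). Mbd3, the subunit that holds NuRD together in ESCs, had 72.3 and 66.1 against 77.8 and 87.4 CPM (-0.25, not called).

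**Figure D2:**
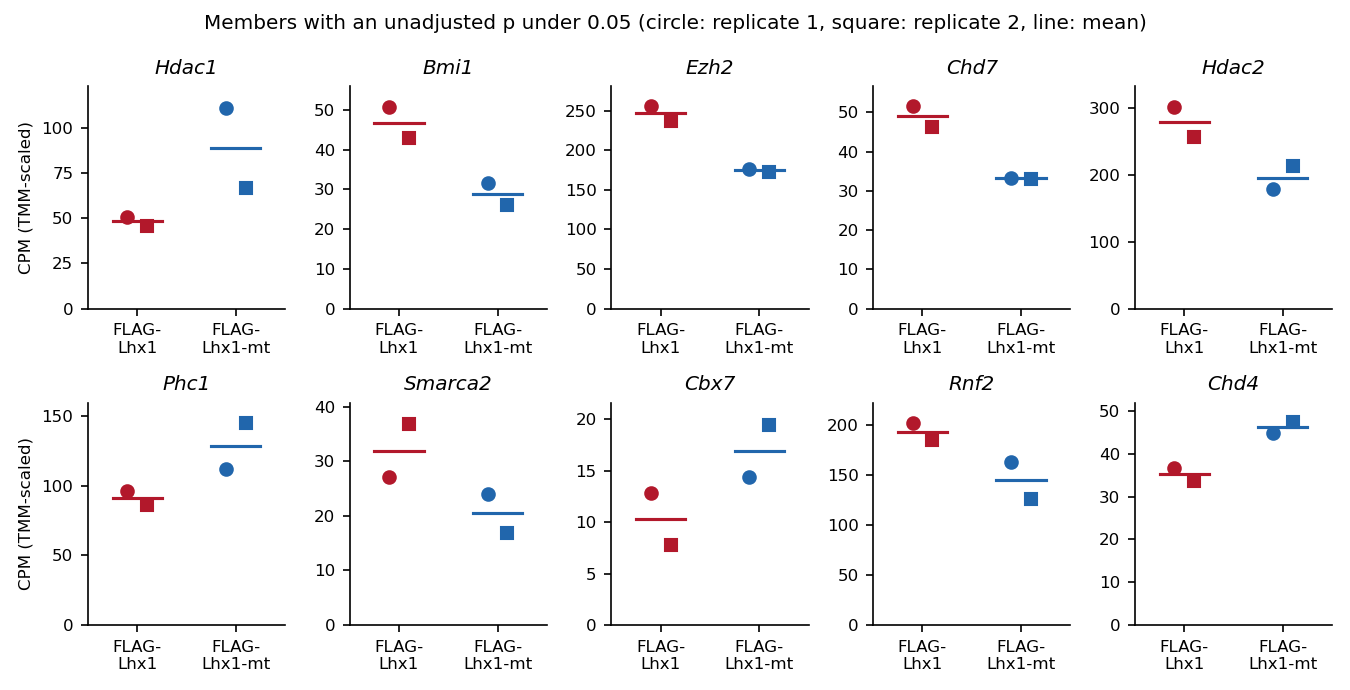
Level in CPM (linear axis) of the 10 members with an unadjusted p under 0.05 in each of the 4 embryos, by group. The groups do not overlap in any of the 10, which is no separate result because the genes were picked by p from these same values. The Hdac1 levels of the FLAG-Lhx1-mt embryos lie apart, at 111 and 67.0 CPM.

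Per kilobase of transcript, the most abundant members were Eed at 98.2 CPM per kilobase, Ezh2 at 75.5, Hdac2 at 73.2, Smarcb1 at 56.5 and Rnf2 at 52.7 (means over the 4 embryos). The lowest were Kmt2d at 0.417, Phf19 at 0.264 and Setd1b at 0.169. This order is of means over both groups and differs between them. Rnf2 was above Smarcb1 in both FLAG-Lhx1 embryos (63.0 and 57.5 against 54.6 and 52.8 CPM per kilobase) and below it in both mutant embryos (50.9 and 39.3 against 58.0 and 60.5). Between embryos of a group the median coefficient of variation of a member's CPM was 8.22% for FLAG-Lhx1 and 10.9% for the mutant group, and the largest were 34.8% and 83.0%.

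Alternative subunits that take the same place in a complex were compared within each embryo as the log2 ratio of their levels per kilobase, which leaves out library scaling. Over 12 such pairs the smallest p that an exact permutation test of 2 against 2 embryos can give is 0.333, so none could pass a threshold (0.667 after Benjamini-Hochberg adjustment over the 12). The ratios of 6 of the 12 pairs did not overlap between the groups, a share near the 52.2% of all single genes whose levels did not. Ezh1 relative to Ezh2 was at -6.59 and -6.16 in the FLAG-Lhx1 embryos and at -5.17 and -5.39 in the mutant embryos, so Ezh2 made up more of the pair in FLAG-Lhx1. Hdac2 relative to Hdac1 was at 1.90 and 1.82 against 0.01 and 1.00, or 3.72-fold and 3.53-fold against 1.01-fold and 2.00-fold. Bmi1 relative to Pcgf2, its close paralog, was at 2.76 and 2.49 against 2.09 and 1.27. Cbx7 relative to Cbx2 was at -0.24 and -0.68 against -0.09 and 0.35. The remaining pairs without overlap were Arid1b to Arid1a (-3.79 and -3.69 against -3.93 and -4.10) and Setd1b to Setd1a (-2.20 and -2.09 against -4.22 and -2.38). The -4.22 rests on 12 Setd1b counts in FLAG-Lhx1-mt replicate 1. The uncertainty given above for the Setd1a and Hdac1 levels holds for their ratios too. Smarca2 relative to Smarca4 overlapped, at -1.90 and -1.37 against -1.88 and -2.67. Several of these pairs hold a called gene, so the ratios restate those calls in another form.

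**Figure D3:**
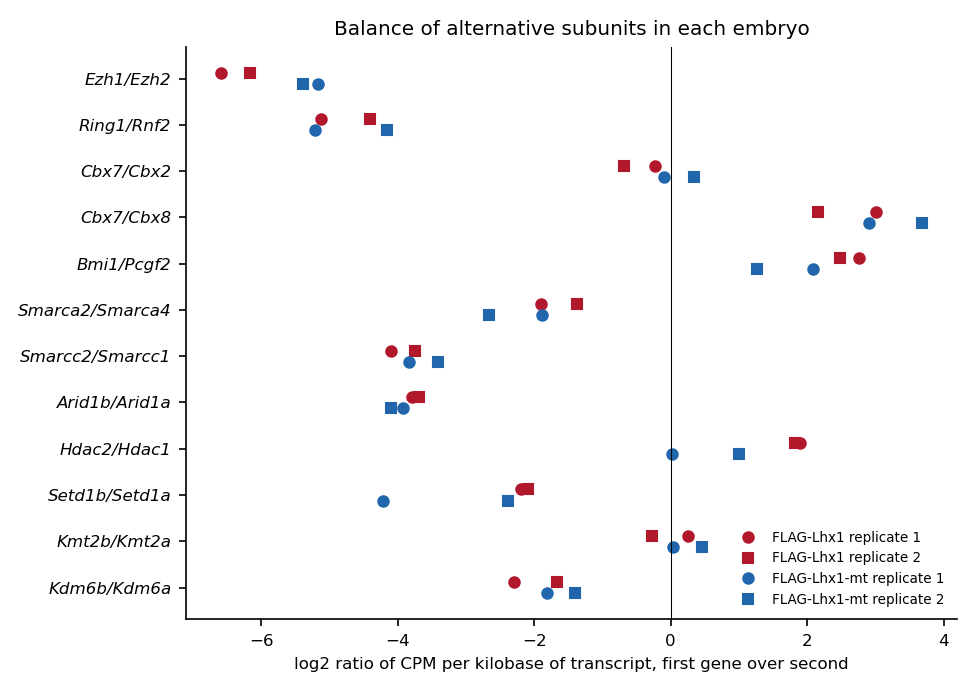
Log2 ratio of the levels per kilobase of 12 pairs of alternative subunits in each of the 4 embryos. The Hdac2 to Hdac1 ratio lies at 1.90 and 1.82 in the FLAG-Lhx1 embryos and at 0.01 and 1.00 in the FLAG-Lhx1-mt embryos, and 6 of the 12 pairs do not overlap.

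Transcript length moved with the comparison. Across 15679 tested genes the Spearman correlation of the log2 fold with transcript length was 0.25, a description across genes that share the same 4 libraries, and it was 0.161 to 0.265 as each embryo was left out. Without the filter on low counts it was -0.0035, over 32038 genes. The median log2 fold rose from -0.14 in the shortest of 5 equal classes of genes (57 to 1573 bases) to 0.16 in the longest (5042 to 123179 bases), and the share called lower fell from 6.82% to 0.925%. Within an embryo, the deviation from the mean of all embryos correlated with length at 0.248 and 0.132 in the FLAG-Lhx1 embryos and at -0.253 and -0.126 in the mutant embryos. The listed genes are long, with a median of 4210 bases beside 3018 for all genes tested, and 21 of the 48 (43.8%) fall in the longest class. Their own correlation was 0.14 over 48 genes, and 31 of them lay below the median of their length class. Over all 48 the median difference from it was -0.14.

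**Figure D4:**
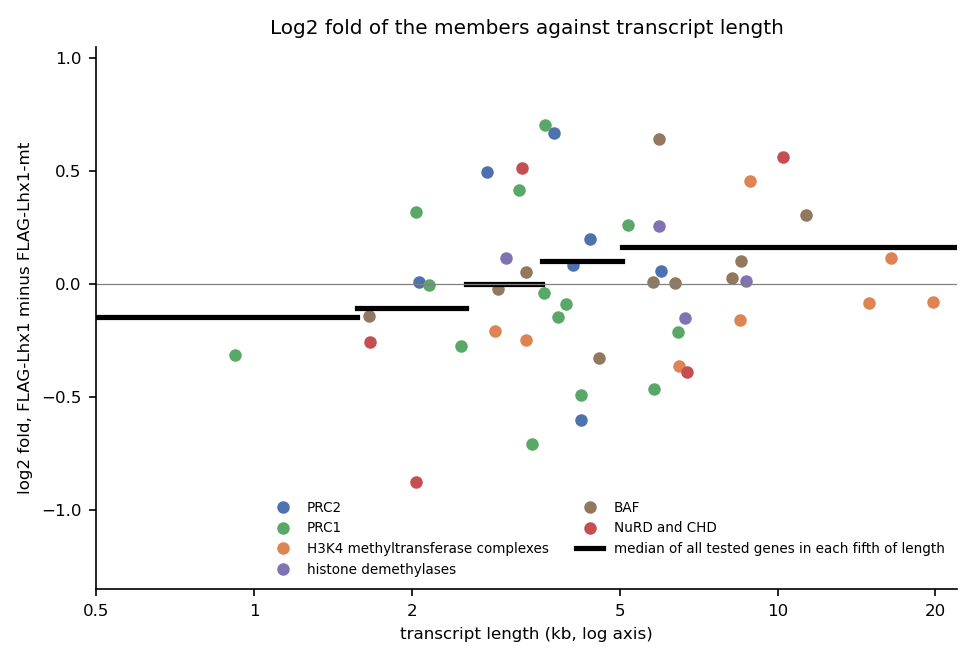
Log2 fold of the 48 genes against transcript length in kilobases (log axis), with black lines for the median of all tested genes in each of 5 equal length classes. The lines step from -0.14 in the shortest to 0.16 in the longest class, and 31 of the 48 genes lie below the line of their class.

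With length offsets in the fit, 5.24% of all genes were called and 4 members, 1 higher and 3 lower. Ezh2, of 2787 bases, kept its call (log2 fold 0.49, edgeR adjusted p = 0.0489), as did Hdac1. Chd7, whose transcript of 10216 bases is among the longer ones, fell to 0.31 (adjusted p = 0.300), and Bmi1, of 3594 bases, to 0.58 (adjusted p = 0.0673). Phc1 (-0.65, adjusted p = 0.0240) and Chd4 (-0.61, adjusted p = 0.0387) were called lower there. With offsets for length and GC content together, 5.73% of all genes were called and 2 members, Hdac1 and Phc1 (-0.59, adjusted p = 0.0283), both lower, while Ezh2 was at 0.44 (adjusted p = 0.0684) and Bmi1 at 0.49 (adjusted p = 0.0880). The median of the 48 moved to -0.17 with length offsets, where that of all genes was -0.04, and 16 of 48 were then above 0. The correlation of the fold with length was then -0.007 over all genes but -0.22 over the 48, where it had been 0.14. The offsets thus leveled length over all genes but not within the members, and the lowered folds of long members are uncertain. The class medians with length offsets were 0.03 for PRC2, -0.22 for PRC1, -0.35 for the H3K4 methyltransferase complexes, -0.09 for the demethylases, -0.10 for BAF and -0.16 for NuRD and CHD.

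**Figure D5:**
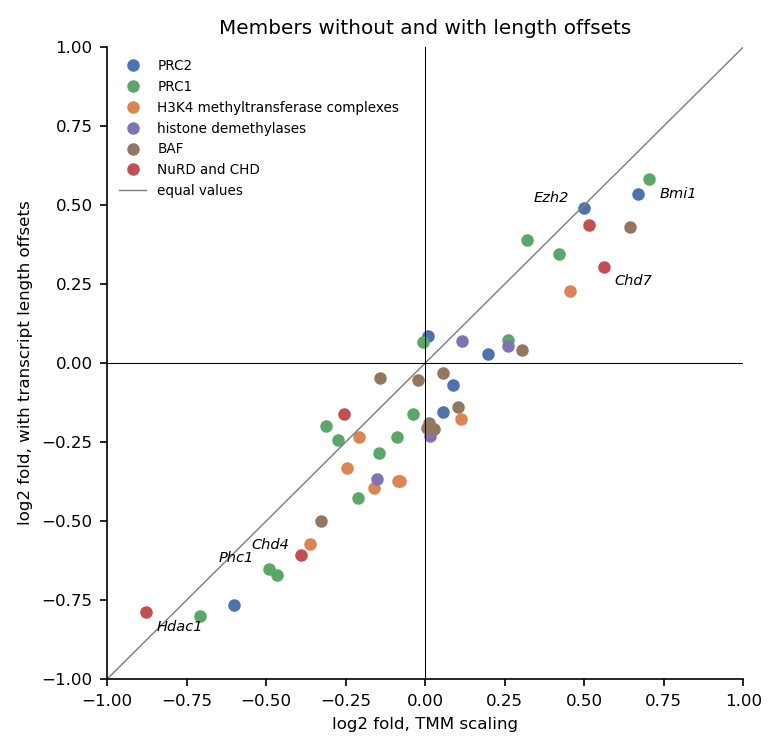
Log2 fold of the 48 genes in the edgeR fit without offsets (horizontal axis) and with transcript length offsets (vertical axis). Most points lie below the diagonal, and Chd7 moves from 0.56 to 0.31 while Ezh2 stays at 0.50 and 0.49.

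The further subunits of these complexes, listed from general knowledge, numbered 84 in the files, of which 83 were tested. Called were 2 of them (2.41%, against 6.17% of all genes), and their median log2 fold was 0.00 (-0.004). Psip1 (LEDGF), a chromatin reader that works with MLL-type methyltransferases, was higher, with 530.4 and 467 CPM in the FLAG-Lhx1 embryos and 324 and 333 CPM in the mutant embryos (0.60 ± 0.14, edgeR adjusted p = 0.0226). It was called in 12 of the 14 alternative settings, and not without FLAG-Lhx1 replicate 1 (0.48, adjusted p = 0.213) or with length and GC offsets (0.45, adjusted p = 0.0740). Bcl11a, a zinc-finger protein found with neural and blood BAF complexes, was lower, with 2.75 and 2.29 against 8.16 and 9.46 CPM (-1.80 ± 0.30, edgeR adjusted p = 0.00244). It was called in all 14 alternative settings, at adjusted p-values of 6.18e-07 to 0.00462. Chosen after their values were seen, Smarcd3 and Bcl11b of BAF, Mta2 of NuRD and the H3K9 demethylase Kdm3a were the uncalled further subunits with an adjusted p under 0.1. Smarcd3 (BAF60C), of heart and mesoderm BAF, had 1.68 and 2.04 against 0.687 and 0.351 CPM (1.85 ± 0.56, edgeR adjusted p = 0.0647), with 48.2% of its exon bases covered by exons of other genes. Bcl11b had a log2 fold of -1.17 ± 0.37 (edgeR adjusted p = 0.0793), and Mta2 one of -0.57 ± 0.17 (edgeR adjusted p = 0.0599). Kdm3a had 82.5 and 77.5 against 54.9 and 59.8 CPM (0.48 ± 0.15, edgeR adjusted p = 0.0665). The levels of these 4 genes did not overlap between the groups, as for 52.2% of all genes. That is no separate result, because the 4 were picked by adjusted p from these same values.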

How the data were processed

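RNA of 4 embryos was made into full-length cDNA libraries by the Geo-seq protocol, with 10 cycles of pre-amplification, and read as 100 bp paired ends, per the labels' protocols, which name no molecular identifiers. Amplified copies of a molecule are thus counted as separate reads, and depth covers counting error only. The deposited values are raw whole-number counts for each Ensembl gene. The submitters' processing notes name STAR, featureCounts (Subread) and the builds GRCm38 and mm10. The sources used here give neither versions nor the strand setting, so reads of overlapping genes on opposite strands cannot be told apart (exons of other genes cover over 20% of the exon bases of 1 of the 48 genes, and some of those of 19).

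Symbols, positions, transcript lengths and GC content came from the GENCODE vM21 annotation (GRCm38), which matched 37693 of the 39179 genes (96.2%), with the longest basic transcript for length. Genes were filtered with filterByExpr (minimum count 10, minimum total 15), scaled by TMM and tested with edgeR 4.0.16 (R 4.3.3, quasi-likelihood F test, group term only), with Benjamini-Hochberg adjustment over 15822 genes. Common biological variation came to a coefficient of 18.2% (residual df 2, prior df 13.4). The standard error of a log2 fold was taken as its absolute value divided by the root of F. Nothing in the labels says more of the 2 embryos of a group than that they are separate samples, so p-values take the spread between them as error. With prior df 13.4 beside residual df 2, the spread used for a gene comes mostly from all genes and less from its own values. Embryos of a group differed by more than sampling noise (chi-square per degree of freedom 40.5 and 26.8). Alternatives, 14 in all, were upper-quartile and DESeq2 scaling, the newer edgeR method, no count filter, a filter of 1 CPM in 2 embryos, offsets for length and for length with GC content (splines of 5 degrees of freedom), a replicate block, leaving out each embryo, DESeq2 1.42.0 and limma-voom (limma 3.58.1). Copies were searched with BLAST 2.17.0. Promoter windows came from RefSeq (GRCm38.p6). The fit was tested on simulated data.

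The members and lists were chosen with earlier results of these data known. Named are all 48 members, the called further subunits and the marker lists, and in addition 4 uncalled further subunits chosen after their values were seen.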

Additional observations from a re-analysis of the deposited data

How the results depend on the processing

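No called result reversed. Of the 48 members, 23 kept the sign of their fold in all 14 alternatives and 25 as each embryo was left out. Ezh2 was called in 9 of the 14 (adjusted p 0.0130 to 0.329), Bmi1 in 10 (0.000885 to 0.263), Chd7 in 7 (0.0245 to 0.381) and Hdac1 in 13 (9.26e-10 to 0.0750). Without a count filter, 1 member was higher and 3 lower, 5 further subunits were called and the members' median log2 fold was -0.062. With length offsets, members called were 1 higher and 3 lower, further subunits 4, and the median was -0.17. With length and GC offsets, 2 members were called, 0 higher and 2 lower, and the median was -0.15. Further subunits called numbered 4 also with the 1 CPM filter, with the DESeq2 Wald test and with the replicate block, which called 4 members and 1138 of all genes and lost Chd7 (adjusted p = 0.0568). The labels do not say that the replicate numbers pair embryos, and the deviations of same-numbered embryos correlated at 0.016. Leaving out 1 embryo gave 521 to 1648 calls over all genes, 2 to 7 members called, 1 to 5 higher and 1 to 2 lower, 2 to 8 further subunits, and medians from -0.10 to 0.027. Fits without an embryo rest on fewer samples, and the cause of the other differences was not tested. Upper-quartile scaling turned the split of all calls from 415 higher and 561 lower to 472 higher and 395 lower. Depth limits genes under about 3 counts, and no member was that low.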
